A study of Mus musculus with 3 samples.

Results

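The growth arrest-specific (Gas) genes were first cloned as transcripts that accumulate in mouse fibroblasts of the NIH3T3 line when these cells stop dividing. The group described here was chosen by gene name and holds 8 of the 55573 genes listed, namely Gas1, Gas2, Gas2l1, Gas2l3, Gas5, Gas6, Gas7 and Pmp22, which was cloned as Gas3. The members share a history of discovery, or are relatives of a gene that does, rather than a pathway. Gas1 is a membrane-anchored co-receptor for Hedgehog proteins, Gas6 is a secreted ligand of the receptor kinases Tyro3, Axl and Mertk, and Gas5 is a long non-coding RNA that hosts small nucleolar RNAs (snoRNAs) in its introns. Gas2, Gas2l1 and Gas2l3 encode linkers between actin filaments and microtubules, Gas7 encodes a membrane-bending F-BAR protein, and Pmp22 encodes a tetraspan membrane protein best known from peripheral myelin.

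UMI-RNAseq was measured in 3 libraries of 1 condition, NIH3T3 cells grown in serum-containing medium with no treatment named, so no growth-arrested sample stands beside them. The libraries are called library 1, library 2 and library 3 after their replicate numbers. Whether each is a culture of its own is not given in the methods, and the spread between them may be technical. Levels are in FPKM, that is, fragments divided by the gene's length in kilobases and by the library's total in units of 1000000. The totals recovered from the FPKM steps lay between 13959723 and 14423209 fragments per library. The extraction label mentions retina, so markers were checked. Of 12 fibroblast markers, 10 had a mean of at least 1 FPKM, with Fn1 highest at 4377 and Lum listed at 0, and their summed level lay between 9362 and 9478 FPKM per library. Of 12 retina markers, 1 did, namely Rbpms at 57.2 FPKM, whereas Nrl and Opn1mw were listed at 0. The summed retina level was 56.2 to 62.3 FPKM per library.

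In these cells 7 of the 8 members had a mean of at least 1 FPKM, a level that 23.2% of all genes listed reached. Among the protein-coding members it was 6 of 7, beside 49.2% of protein-coding genes. The mean level fell in the order Gas5, Pmp22, Gas7, Gas1, Gas2l1, Gas2l3 and Gas2, from 347.7 to 12.2 FPKM, and Gas6 was listed at 0 in every library. The median of the members was 38.3 FPKM, beside 17.5 FPKM over the 12905 genes with a mean of at least 1 and 0 over all genes listed. Gas5 lay above 98.0% of the genes with a mean of at least 1 FPKM, and Gas2 above 41.0%.

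**Figure D1:**
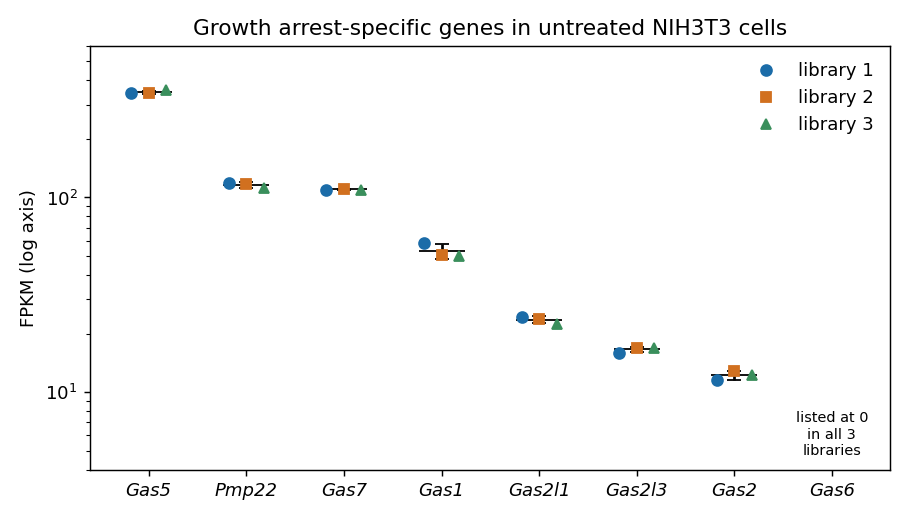
FPKM of the 8 growth arrest-specific genes (log axis) in libraries 1 to 3 of NIH3T3 cells; horizontal lines and bars are the mean and SD over the 3 libraries. The members step down from Gas5 near 347.7 FPKM to Gas2 near 12.2 FPKM, the values of a gene lie close together, and Gas6 is listed at 0.

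Gas5, the non-coding member, was the most abundant. Libraries 1, 2 and 3 had 342.7, 345.7 and 354.7 FPKM of it, and the mean was 347.7 ± 6.21 (SD, n = 3 libraries). Library 3 was the highest by a small margin. The libraries differed by a CV of 1.79%, where counting error alone gives 1.65% at the mean number of fragments per library. Gas5 had 10999 fragments over the 3 libraries. Gas5 (ENSMUSG00000053332) lies at positions 161034422 to 161038539 of chromosome 1 (plus strand) in GRCm38. GENCODE M21 gives it 25 isoforms, of which 20 are typed as retained introns, so the exons of some isoforms cover introns of others. The opposite-strand gene Zbtb37 overlaps it without a shared exonic base. The annotation places 10 snoRNA genes of 60 to 84 nt inside it, of which 2 are overlapping entries for Snord80, on the same strand and within exonic sequence of such isoforms. Each of the 10 was listed at 0 in every library, as were 84.1% of the 1507 snoRNA genes listed. The level of Gas5 is therefore that of reads assigned to the host RNA, with no value for the snoRNAs processed from it. Whether reads shared by the host and a snoRNA gene were set aside in counting was not tested.

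The snoRNAs that Gas5 carries are of the C/D type, which guide methylation of ribosomal RNA and are recognised by a C box near the 5′ end and a D box near the 3′ end. To show what lies in the introns of this host, 4 of them are given 5′ to 3′ as DNA from GENCODE M21, with the first TGATGA (the C box core) and the last CTGA (the D box) in capitals. Snord47 lies at chr1:161038082-161038158, the longer entry of Snord80 at chr1:161037601-161037681, Gm23212 at chr1:161036682-161036741 and Gm25789 at chr1:161038308-161038383, each on the plus strand.
Snord47: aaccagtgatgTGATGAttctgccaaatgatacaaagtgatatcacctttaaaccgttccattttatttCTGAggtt
Snord80: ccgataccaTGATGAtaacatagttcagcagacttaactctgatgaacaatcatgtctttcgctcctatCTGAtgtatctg
Gm23212: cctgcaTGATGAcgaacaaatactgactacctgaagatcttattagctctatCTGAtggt
Gm25789: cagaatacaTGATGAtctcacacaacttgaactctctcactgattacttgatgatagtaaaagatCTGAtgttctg
Searched on the RNA strand only, both letter strings in this order occurred in 8 of the 10 snoRNA genes within Gas5 and in 76.9% of the 303 annotated snoRNA genes of the same length range. A match of letters is a description and not a functional test.

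Beside the 7 other non-coding snoRNA hosts examined, Gas5 had the highest level. Of these 7 genes, 6 had a mean of at least 1 FPKM, and Snhg3 was listed at 0. The next in order was Zfas1 with 149.2 ± 5.42 FPKM (SD, n = 3), and the lowest above 0 was Snhg12 with 50.9 ± 3.60. The ratio of Gas5 to Snhg1 was 3.36, 3.36 and 3.62 in libraries 1, 2 and 3, and averaged 3.45 ± 0.151 (SD, n = 3). Host RNAs of this kind, Gas5 among them, are known substrates of nonsense-mediated decay, the pathway that removes transcripts with an early stop codon during translation. All 8 decay factors examined had a mean of at least 1 FPKM, from Upf3b at 10.8 ± 0.297 to Smg5, which helps to recycle the central helicase, at 110.0 ± 2.51 (SD, n = 3). The helicase itself, Upf1, had 29.1 ± 0.576 FPKM.

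Pmp22 ranked next among the members. Libraries 1, 2 and 3 had 118.8, 117.1 and 111.8 FPKM of it, and the mean was 115.9 ± 3.67 (SD, n = 3). Library 3 was the lowest, and the CV of 3.17% compares with 2.36% from counting error. The gene (ENSMUSG00000018217) lies at positions 63128982 to 63159547 of chromosome 11 (plus strand), has 5 annotated isoforms and overlaps no other annotated gene. Its family encodes tetraspan proteins of the plasma membrane and of cell junctions. Emp1, which encodes an epithelial membrane protein, stood well above it at 643.6 ± 5.75 FPKM (SD, n = 3). Pmp22 reached 0.186, 0.181 and 0.173 times the level of Emp1 in libraries 1, 2 and 3, with a mean of 0.180 ± 0.00707. Emp2 had 68.4 ± 0.149 FPKM, Emp3 had 50.4 ± 3.01 and Tmem47 had 40.5 ± 0.421. Lim2, a protein of the eye lens, rested on 1, 0 and 2 fragments, and the epithelial gene Perp was listed at 0. Of the 6 relatives, 4 had a mean of at least 1 FPKM.

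Pmp22 is a defining transcript of myelinating Schwann cells, so the other genes of that cell type were read beside it. The myelin gene Mag had a mean of 0.0149 FPKM and the lineage factor Sox10 had 0.0126, each from 1 fragment in all. Of the 8 Schwann cell genes, 4 had a mean of at least 1 FPKM, with the immediate early factor Egr2 highest at 7.67, and their summed level was 15.2 to 15.8 FPKM per library. In a bulk sample, a few cells with much of an RNA and many cells with little of it cannot be told apart. The level of Pmp22 alone was above the sum of these 8 genes in every library.

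Gas7 had nearly the level of Pmp22 and the lowest CV of the members above 0. Its values were 109.7, 110.5 and 109.5 FPKM in libraries 1, 2 and 3, and the mean was 109.9 ± 0.504 (SD, n = 3). It had 8883 fragments over the 3 libraries. Its CV of 0.458% was below the 1.84% that counting error gives at the mean number of fragments per library. With 3 libraries, this does not set Gas7 apart from other members near counting error. The gene (ENSMUSG00000033066) lies at positions 67455437 to 67688990 of chromosome 11 (plus strand). Its 11 annotated isoforms run from 575 to 7067 nt. It shares 66 exonic nt with the opposite-strand gene Glp2r, which had a mean of 0.163 FPKM, and its introns hold the antisense gene Gm12301, which shares no exonic base with it. Gas7 is best known from neurons, where it promotes the outgrowth of neurites, and belongs to the F-BAR proteins that bend membranes and recruit actin regulators. Of 16 genes of this group, its WASP-family partner Wasl included, 13 had a mean of at least 1 FPKM. Pacsin2, which acts in endocytosis and at caveolae, was the highest at 133.8 ± 1.5 FPKM (SD, n = 3). In the deposited FPKM it was the only one above Gas7. The place of Gas7 among these genes was not checked under other gene lengths. Wasl had 55.0 ± 0.706 FPKM, and the lowest gene above 1 FPKM was Srgap1 with 5.94 ± 0.234. Pstpip2, an F-BAR gene of blood cells, was listed at 0.

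Gas1 was the member that varied most between the libraries. Its values were 58.5, 50.9 and 50.1 FPKM in libraries 1, 2 and 3, and the mean was 53.2 ± 4.62 (SD, n = 3). These values rest on 1736, 1463 and 1475 fragments. Library 1 stood apart, 1.15 times library 2 and 1.17 times library 3, while library 2 was 1.02 times library 3. The CV of 8.70% was 3.43 times the 2.53% that counting error gives. Among the 7 members above 0, Gas1 was the 1 with a CV of at least 2 times counting error, and 5.88% of the 9360 genes with at least 100 fragments on average reached that mark. The ratio of Gas1 exceeded that of 98.7% of these genes, but it rests on library 1, without which it fell to 0.445. Of the 550 genes past the mark, library 1 was the highest in 237, library 2 in 185 and library 3 in 128. In 351 of the 550, library 1 differed from the mean of libraries 2 and 3, upwards or downwards, by more than those libraries differed from each other. The same count was not taken for library 2 or library 3, so the 351 cannot be weighed against theirs. What set library 1 apart in Gas1 was not tested.

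**Figure D2:**
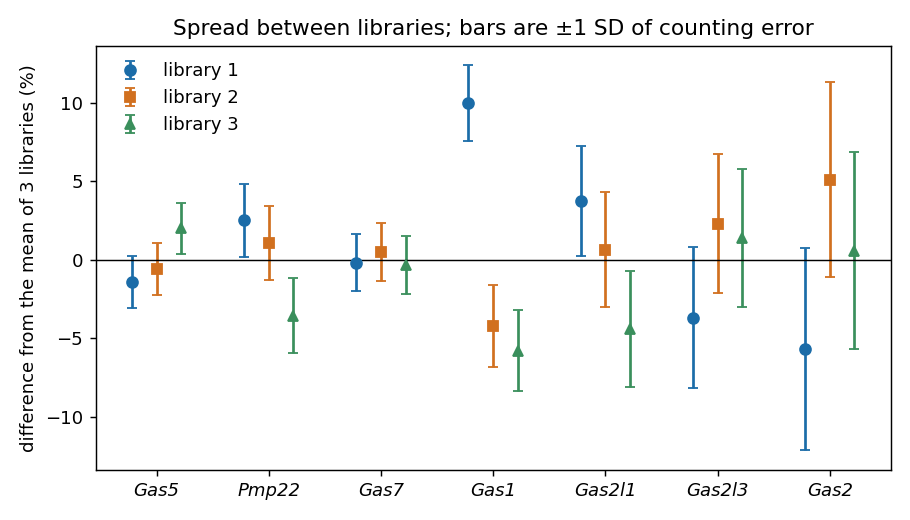
Difference of each library from the mean of the 3 libraries, in percent, for the 7 members above 0; bars are ±1 SD of counting error from the recovered fragments. Gas1 in library 1 lies well outside its bar, whereas the 3 values of Gas7 nearly coincide and those of Gas2, with 756 fragments in all, have the widest bars.

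Gas1 (ENSMUSG00000052957) lies at positions 60174405 to 60177365 of chromosome 13 (minus strand) and has 2 single-exon isoforms of 1155 and 2961 nt. The opposite-strand long non-coding gene Gm48488 shares 589 of its 2961 exonic nt, and it had 0.273, 0.388 and 0.448 FPKM in libraries 1, 2 and 3. The methods do not say whether counting used strand, and without it reads in the shared stretch cannot be told apart. Of the 75-nt words of Gas1, 15.4% occur in a transcript of 1 other gene. Either strand was searched, so the stretch shared with Gm48488 is included. The Gas1 protein helps Patched to bind Hedgehog ligands, together with Cdon and Boc. Gas1 was the most abundant of these co-receptors. Cdon had 9.93 ± 0.585 FPKM and Boc 7.11 ± 0.173 (SD, n = 3). Gas1 exceeded Cdon by 5.65-fold, 5.00-fold and 5.41-fold in libraries 1, 2 and 3, and Boc by 8.42-fold, 6.98-fold and 7.07-fold. Cdon had 10.3, 10.2 and 9.26 FPKM in the same order, with library 3 the lowest, and Boc had 6.95, 7.29 and 7.08, with library 1 the lowest.

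Among the other Hedgehog genes, those of the receiving side lay above those of the ligands. Smo, the signal-passing membrane protein, was the highest at 33.0 ± 0.577 FPKM, and the receptor Ptch1 had 11.8 ± 0.302 (SD, n = 3). The inhibitor Sufu had 23.2 ± 1.59 FPKM, and the transcription factors Gli2 and Gli3 had 20.5 ± 0.963 and 18.3 ± 0.660. Gli1, which is itself a target of the pathway, had 0.995 ± 0.108 FPKM from 64 fragments, just below the limit of 1 FPKM, and the target Hhip rested on 1 fragment in 3 libraries. Among the ligands Shh was listed at 0, Ihh had 2 fragments in all and Dhh had 0.218 ± 0.127 FPKM. Of the 13 genes, 7 had a mean of at least 1 FPKM. Gas1 is also related in structure to the receptors of the GDNF family of neurotrophic factors. Of 6 genes of that family, 1 had a mean of at least 1 FPKM, namely Gfra2 with 4.85 ± 0.439 (SD, n = 3), while the signalling receptor Ret rested on 2 fragments and Gfra3 was listed at 0.

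The Gas2 relatives formed the lower end of the members. Gas2l1 had 24.4, 23.7 and 22.5 FPKM in libraries 1, 2 and 3, and its mean was 23.5 ± 0.967 (SD, n = 3). Gas2l3 had 16.0, 17.0 and 16.8 FPKM in libraries 1, 2 and 3, with a mean of 16.6 ± 0.536. Gas2, the founding gene and a known substrate of caspases in dying cells, had 11.5, 12.8 and 12.3 FPKM and a mean of 12.2 ± 0.662. The 3 genes kept this order in every library with no overlap of their values. Gas2l1 exceeded Gas2 by 2.12-fold, 1.85-fold and 1.83-fold, with a mean of 1.93 ± 0.163 (SD, n = 3). Their CVs of 4.11%, 3.23% and 5.43% compare with 3.62%, 4.44% and 6.30% from counting error, so the libraries differed in these genes by about what their fragments allow. The remaining relative, Gas2l2, was listed at 0.

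Gas2l1 (ENSMUSG00000034201) lies at positions 5054132 to 5065327 of chromosome 11 (minus strand), and Gas2l3 (ENSMUSG00000074802) at positions 89408823 to 89443967 of chromosome 10 (minus strand). Gas2 (ENSMUSG00000030498) lies at positions 51862015 to 51994975 of chromosome 7 (plus strand). Its 5′ end shares 253 exonic nt with Fancf, a gene of DNA crosslink repair on the opposite strand, which had 5.09 FPKM. Gas2l1 shares 14 exonic nt with Rasl10a, at 0.416 FPKM. The GAS2-related domain that binds microtubules also occurs in the giant spectraplakins, and the end-binding proteins that track microtubule tips are partners of the Gas2-like proteins. Of these genes, the spectraplakins Dst and Macf1 had 183.5 ± 6.82 and 51.3 ± 1.23 FPKM (SD, n = 3). The end-binding genes Mapre1, Mapre2 and Mapre3 had 51.9 ± 0.313, 25.1 ± 1.14 and 16.5 ± 0.471 FPKM. With Gas2l2 at 0, 5 of these 6 genes had a mean of at least 1 FPKM.

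Gas6 was listed at 0 FPKM in library 1, library 2 and library 3. The gene (ENSMUSG00000031451) lies at positions 13465374 to 13494490 of chromosome 8 (minus strand), with 1 annotated isoform of 15 exons and 2548 nt. Among protein-coding genes 28.2% were listed at 0 in every library. Some genes that every cell uses were among them, such as Mrpl53 of the mitochondrial ribosome and Tomm6 of the mitochondrial import pore, which were chosen after their values were seen. In those 2 genes 88.0% and 84.2% of the exonic sequence is also annotated to another gene. In Gas6 it is 1.33%, or 34 nt shared with Tmem255b, and 0% of its 75-nt words occur in a transcript of another gene. What the 0 of Gas6 stands for was not tested, so no fold against it is given.

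Around Gas6, levels were mixed. Within 250 kb of its start site, 11 protein-coding genes were listed, Gas6 included, of which 4 had a mean of at least 1 FPKM and 3 were listed at 0. The nearest of the 4 were Tfdp1, the partner of E2F factors, with 79.3 ± 2.46 FPKM (SD, n = 3) and Rasa3, a Ras-inactivating protein, with 175.5 ± 2.89. They flank the gene on either side. The neighbour Tmem255b, whose annotation overlaps the end of Gas6, was listed at 0, and 1700029H14Rik had 0.229 ± 0.0373 FPKM. This window was chosen after the value of Gas6 was seen.

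**Figure D3:**
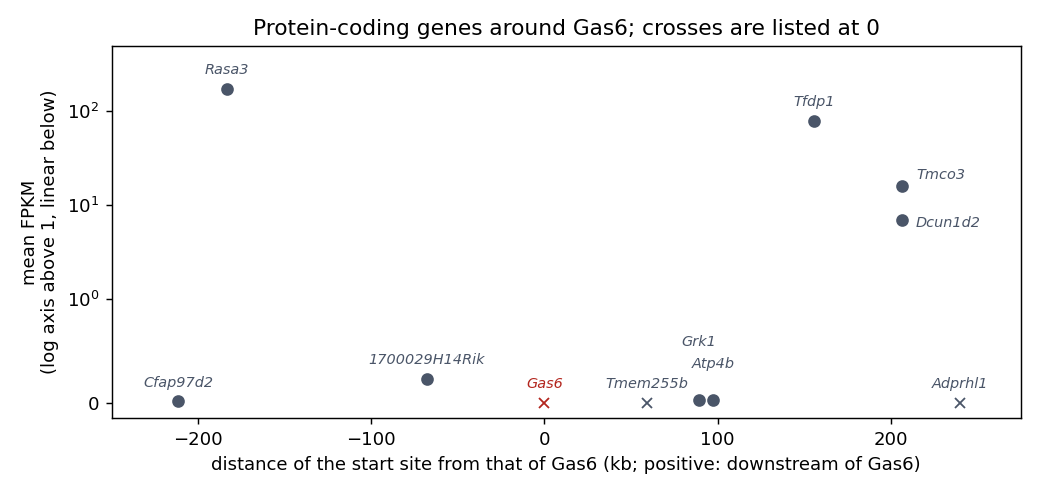
Mean FPKM (log axis above 1, linear below) of the 11 protein-coding genes whose start sites lie within 250 kb of that of Gas6, against distance in kb; crosses are genes listed at 0. Rasa3 at 175.5 FPKM and Tfdp1 at 79.3 FPKM stand on either side of Gas6.

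The partners of Gas6 were present at very unequal levels. Axl, the receptor kinase that binds Gas6 most tightly, had 656.4, 646.7 and 647.0 FPKM in libraries 1, 2 and 3, and its mean was 650.0 ± 5.50 (SD, n = 3). This was above the level of every member. Tyro3 had 27.4, 25.6 and 25.8 FPKM, and Mertk, the receptor of phagocytes that clear dead cells, had 0.453, 0.610 and 0.655 FPKM from 23, 30 and 33 fragments. Axl exceeded Tyro3 by a mean of 24.8-fold ± 0.708 (SD, n = 3). It exceeded Mertk by 1450-fold, 1060-fold and 988.2-fold in libraries 1, 2 and 3, a ratio resting on few fragments of Mertk. What the spread of this ratio stands for was not tested. Pros1, which encodes protein S, a ligand of Tyro3 and Mertk, had 44.7, 45.9 and 45.7 FPKM in libraries 1, 2 and 3. Gas6 and protein S both need vitamin K-dependent carboxylation. The carboxylase gene Ggcx had 17.5 ± 0.197 FPKM and the reductase gene Vkorc1l1 had 35.1 ± 1.12 (SD, n = 3), whereas its relative Vkorc1 rested on 1, 1 and 5 fragments. Of the 7 genes, 5 had a mean of at least 1 FPKM.

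**Figure D4:**
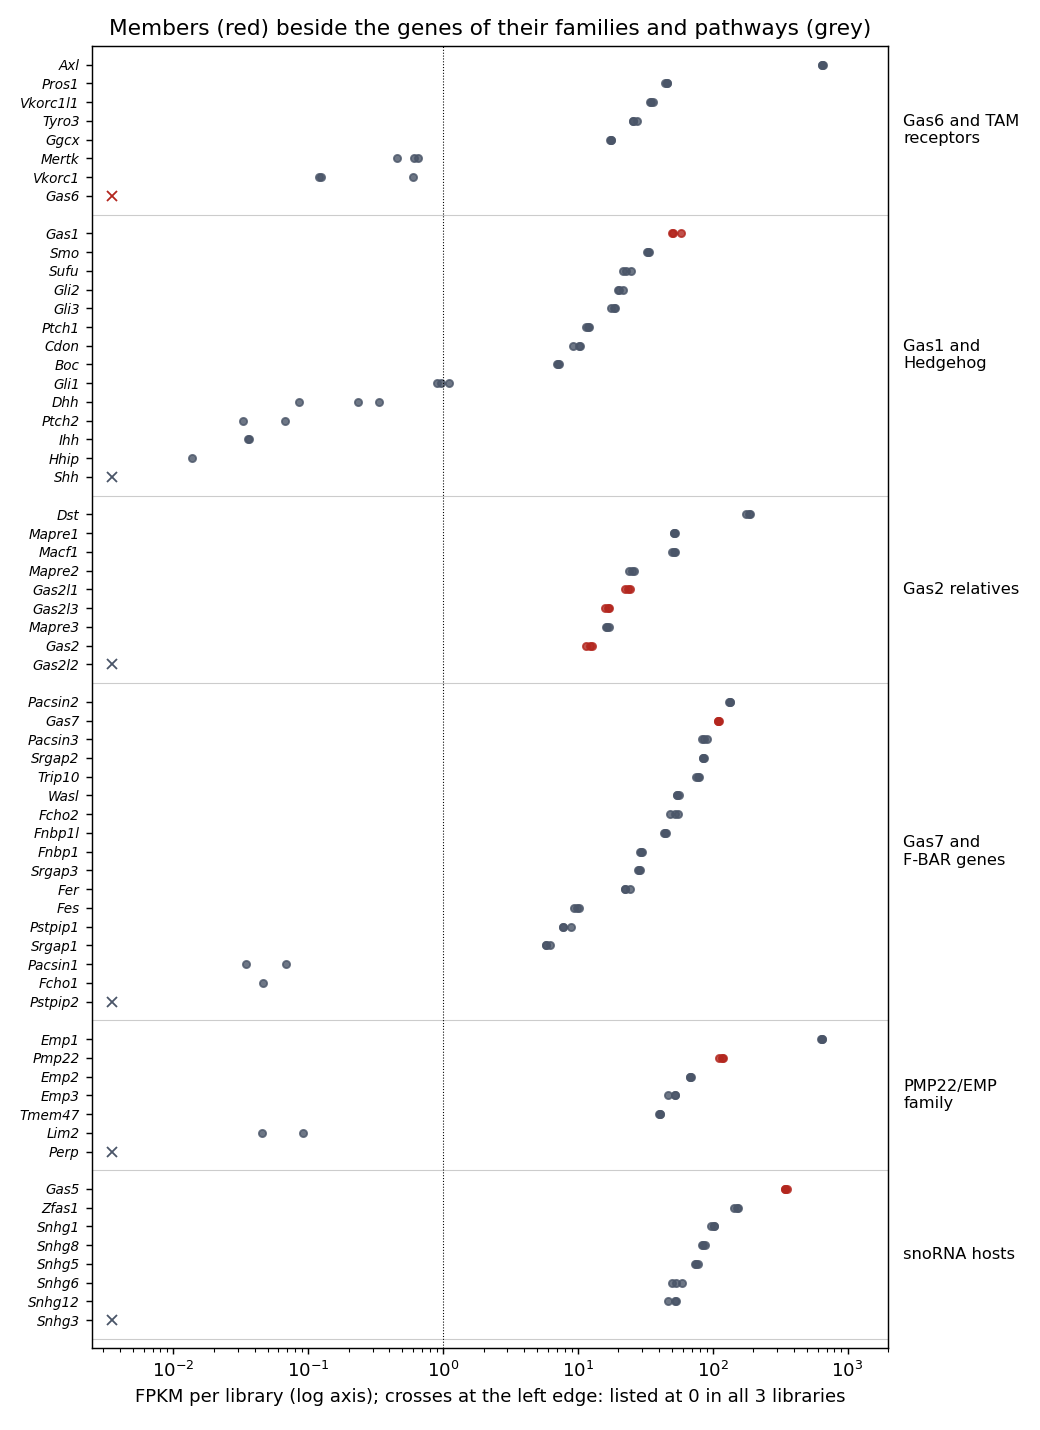
FPKM per library (log axis) of the members, in red, beside the genes of their families and pathways, in grey; the dotted line marks 1 FPKM, crosses are genes listed at 0 in all 3 libraries, and single libraries at 0 are not drawn. Axl and Emp1 exceed the members of their groups, Gas1 and Gas5 lead theirs, and Gas6 is listed at 0.

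The growth state of the culture was read from lists of cycle genes. All 8 genes of cycling cells had a mean of at least 1 FPKM, from the transcription factor E2f1 at 16.9 ± 0.525 to Top2a, the topoisomerase of dividing cells, at 205.3 ± 5.59 (SD, n = 3). The proliferation marker Mki67 had 43.1 ± 0.0908 FPKM. The members above 0 were thus measured in cultures with RNA of cycling cells, and no arrested culture was available to compare. Of 7 CDK inhibitor genes, 4 had a mean of at least 1 FPKM. Cdkn1a, the p53-induced inhibitor, was the highest at 142.8 ± 1.22, and Cdkn1c, Cdkn2a and Cdkn2b were listed at 0. Other genes named for growth arrest were also present, with 6 of 7 at a mean of at least 1 FPKM. Ppp1r15a, cloned as Gadd34 and a regulator of translation under stress, had 189.4 ± 2.84 FPKM, Gadd45a had 124.3 ± 1.78 and Ddit3 had 104.5 ± 1.20 (SD, n = 3). Ddit3 is listed in 2 rows, of which that with the higher mean was used. Gas8, a component of motile cilia that is not among the members, had 12.7 ± 0.581 FPKM. The lowest was Gadd45gip1, with 0.688 ± 0.235.

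Neighbours in the order of members did not overlap in their FPKM over the libraries. Gas5 exceeded Pmp22 by 3.0-fold ± 0.151, Gas7 exceeded Gas1 by 2.08-fold ± 0.175 and Gas1 exceeded Gas2l1 by 2.26-fold ± 0.126 (SD, n = 3). Gas2l1 exceeded Gas2l3 by 1.42-fold ± 0.0978, and Gas2l3 exceeded Gas2 by 1.36-fold ± 0.0336. In these 5 pairs the difference of the means was at least 6.41 times the larger SD. The exception was Pmp22 over Gas7, at 1.08-fold, 1.06-fold and 1.02-fold in libraries 1, 2 and 3, where the difference of 5.98 FPKM was 1.63 times the larger SD. Flipping the signs of the log2 ratios in every combination, an exact and two-sided permutation test, gave p = 0.25 for each of the 6 neighbouring pairs and for each of the 8 pairs of relatives and partners, with Gas2l1 over Gas2l3 in both sets, and 0.25 after Benjamini-Hochberg adjustment. No smaller p can come from 3 libraries, and 0.05 was out of reach.

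The order also rests on the length by which fragments are divided. The deposited values imply the mean length of a gene's annotated isoforms, for example 741 nt for Gas5, 1893 nt for Gas7 and 2155 nt for Gas2l3. Their longest isoforms measure 2556, 7067 and 6748 nt. When fragments were divided by the longest isoform instead, Gas7 fell from 109.9 to 29.4 FPKM, below Gas1 at 37.0. Gas2l3 fell to 5.29 FPKM, below Gas2 at 5.61. Gas5 at 100.8 FPKM and Pmp22 at 69.5 FPKM remained the highest under both lengths, in that order. Counted in fragments per 1000000 without division by length, Gas7 with 208.1 exceeded Pmp22 with 126.7. The order of Pmp22, Gas7 and Gas1, and that of Gas2l3 and Gas2, is therefore not settled by these values.

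**Figure D5:**
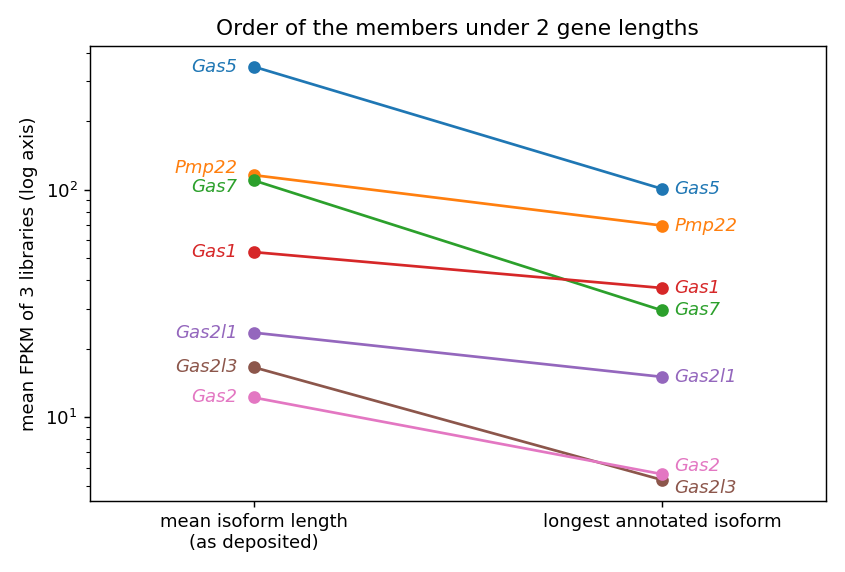
Mean FPKM of 3 libraries (log axis) for the 7 members above 0, computed with the mean isoform length and with the longest annotated isoform; each line is 1 gene. The lines of Gas7 and Gas1 cross, as do those of Gas2l3 and Gas2, while Gas5 and Pmp22 stay on top.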

How the data were processed

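Total RNA of NIH3T3 cells was sequenced as paired-end UMI-RNAseq in 3 libraries. Per the methods and the submitters' processing notes, the authors identified UMIs with UMI-tools (1.0.0), mapped reads with HISAT2 (2.0.4), removed duplicates with the same UMI, counted reads with HTSeq (0.6.1) and deposited FPKM. The build and annotation are not given in the sources used here. The FPKM of the 55573 genes are the same in either table, and 0 columns were left unused. Values were used as deposited.

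Fragments were recovered as FPKM multiplied by library total and mean isoform length in GENCODE M21 (GRCm38), which held 55480 of the gene IDs. Of 26178 genes above 0 there, 96.4% came out whole in every library within 0.01 fragments, all members included. The recovery was tested on simulated data. Counting error is Poisson error of these fragments, taken beside a CV at their mean number per library, and covers counting only. Python 3.11.15, numpy 2.4.6, pandas 2.3.3, scipy 1.17.1 and matplotlib 3.10.9 were used.

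All 8 members are named, with the genes of the pairs tested, the highest, lowest and zero genes of each list, the TAM receptors, the Hedgehog co-receptors and overlapping genes; others were added after their values were seen, and some list genes are not reported here. Members and lists were chosen with earlier results of these data known. The reference held no protein sequences, so identities between the Gas2 relatives were not computed. As replicates of 1 condition give no pattern, no gene is named for a like one. Alternatives were leaving out each replicate, other gene lengths, other limits on FPKM, percentiles among all genes, medians in place of means, pseudocounts of 0.1 and 1, TPM and scaling by median ratios.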

Additional observations from a re-analysis of the deposited data

How the results depend on the processing

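The detection of members and partner genes, the order of members, the pairs of relatives and partners, and the number of members with a wide spread gave 117 values under the alternatives, of which 113 kept their direction or stayed within 1.5 times the main count. Gas2l1 over Gas2l3 counts in both the order and the pairs. The sign of 3 log2 ratios reversed. With the longest isoform, Gas7 over Gas1 became -0.32 from 1.05 and Gas2l3 over Gas2 became -0.084 from 0.44, because these alternatives divide by other lengths. Without division by length, Pmp22 over Gas7 became -0.72 from 0.08. Other changes of sign were not seen in these pairs. The number of members with a CV of at least 2 times counting error ranged from 0 to 1 over the settings that each left out one replicate, with 0 without library 1. The number of members detected was 7 in each setting tried, and no p-value passed 0.05. Gas1, whose mean rests most on a single library, had 50.5 FPKM without library 1. Rescaling to 1000000 per library (TPM) raised Gas5 to 503.9 and Gas2 to 17.7, and dividing by the longest isoform lowered the 7 members above 0. Depth limits the genes below 1 FPKM most, since Vkorc1 rests on 1, 1 and 5 fragments. Libraries could not be paired across conditions because they form a single group, so only genes were paired, within each library.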
